A study of Mus musculus with 6 samples.

Results

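The nuclear genes for subunits of the mitochondrial respiratory chain and of ATP synthase were examined in liver of mice that lack the receptor ErbB4 and of wild-type controls. The genes were taken by symbol (complex I, the numbered Nduf genes of the a, b, c, s and v series; complex II, Sdha to Sdhd; complex III, the Uqcr genes; complex IV, Cox4 to Cox8; ATP synthase, the Atp5 genes), which gave 79 of the 22180 genes that the arrays measured by name. Of these, 32 belong to complex I, 4 to complex II, 8 to complex III, 17 to complex IV and 18 to ATP synthase. The symbols also took in 2 pseudogenes, Uqcrh-ps1 and Atp5c1-ps.

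Liver of 6 mice was profiled on Affymetrix whole-transcript arrays, with 1 array per mouse. The 3 control mice were wild-type C57BL/6J. The 3 ErbB4-/- mice lacked the receptor in the whole body apart from a transgene that overexpressed ErbB4 in the heart and let the embryos survive (ErbB4-/-HER4heart), and the line had been backcrossed to C57BL/6J for more than 15 generations. Mice of both groups had been given 1 injection of DEN (diethylnitrosamine, a carcinogen of the liver) on postnatal day 14. The protocol gives 32 weeks until dissection for every mouse, but the treatment characteristic counts up by mouse, from 32 to 34 weeks over control replicates 1 to 3 and from 35 to 37 weeks over ErbB4-/- replicates 1 to 3. The sources used here do not give the sex of the mice, and absence of the receptor and presence of the transgene cannot be told apart. Values are log2 signals as deposited, and differences are ErbB4-/- minus control on that scale, with their standard error (SE) from the fit over 3 against 3 arrays.

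The respiratory chain sits in the inner mitochondrial membrane. Complex I takes electrons from NADH and complex II from succinate, coenzyme Q carries them to complex III, cytochrome c carries them on to complex IV, and complex IV passes them to oxygen. Complexes I, III and IV pump protons, and ATP synthase uses the proton gradient to make ATP, which hepatocytes spend on gluconeogenesis, urea synthesis and protein secretion. Most subunits are encoded in the nucleus and a few core ones in mitochondrial DNA (mtDNA), so that expression from both genomes has to be matched. The nuclear factors NRF1 and GABP (an ETS family protein) and the orphan receptor ERR alpha are known regulators of the nuclear subunit genes.

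Promoters are shown for the 5 subunit genes with an unadjusted p under 0.05, all of them higher in ErbB4-/- liver. The bases are the 250 before the RefSeq start site (GRCm38.p6), 5′ to 3′ on the gene's strand. Capitals mark the letters GCGCATGC (an NRF1 motif), CCGGAAG (an ETS motif), AAGATGGC (a YY1 motif) or CAAGGTCA (an ERR motif) on either strand.
Cox6a1 (chr5:115348959-115349208, minus strand): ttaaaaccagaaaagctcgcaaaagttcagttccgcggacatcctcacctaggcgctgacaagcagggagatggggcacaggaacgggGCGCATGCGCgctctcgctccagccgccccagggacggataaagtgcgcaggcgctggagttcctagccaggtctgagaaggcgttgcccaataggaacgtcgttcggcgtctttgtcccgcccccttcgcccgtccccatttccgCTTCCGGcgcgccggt
Cox8a (chr19:7217617-7217866, minus strand): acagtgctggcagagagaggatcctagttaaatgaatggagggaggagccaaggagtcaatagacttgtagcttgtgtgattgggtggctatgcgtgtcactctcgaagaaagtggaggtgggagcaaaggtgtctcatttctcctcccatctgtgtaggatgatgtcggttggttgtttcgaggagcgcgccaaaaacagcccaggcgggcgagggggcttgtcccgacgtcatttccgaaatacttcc
Ndufb7 (chr8:83566508-83566757, plus strand): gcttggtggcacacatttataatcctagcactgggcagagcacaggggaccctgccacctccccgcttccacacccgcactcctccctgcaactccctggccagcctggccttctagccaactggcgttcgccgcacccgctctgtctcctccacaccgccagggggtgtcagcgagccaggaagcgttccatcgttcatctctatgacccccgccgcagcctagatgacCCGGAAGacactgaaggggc
Ndufs3 (chr2:90904722-90904971, minus strand): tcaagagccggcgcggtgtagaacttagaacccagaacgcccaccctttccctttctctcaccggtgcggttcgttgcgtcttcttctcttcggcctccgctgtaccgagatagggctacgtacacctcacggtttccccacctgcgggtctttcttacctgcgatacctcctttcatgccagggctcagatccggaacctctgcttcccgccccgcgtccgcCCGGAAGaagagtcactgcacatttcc
Cox7c (chr13:86046796-86047045, minus strand): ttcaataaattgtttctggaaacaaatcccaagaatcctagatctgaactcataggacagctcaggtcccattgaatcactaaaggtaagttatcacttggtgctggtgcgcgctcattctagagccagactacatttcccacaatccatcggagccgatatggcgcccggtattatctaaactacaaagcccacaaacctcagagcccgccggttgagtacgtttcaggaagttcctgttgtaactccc

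In the Cox6a1 promoter the capitals are a pair of overlapping NRF1 matches, 1 on each strand, and an ETS match close to the start. Ndufb7 and Ndufs3 have 1 ETS match each among the bases shown, and Ndufs3 has another from the start site on. Cox8a has an ETS match that begins in the last 5 bases shown and runs across the start site, so that it is not in capitals, and another after the start, and the Cox7c window holds none of the 4 motifs. Among the subunit genes, 64 have a window of 300 bases in RefSeq (250 before the start and 50 after). The NRF1 motif was in 15.6% of these against 3.05% of 27025 genes with such a window. The ETS motif was in 26.6% against 9.93%, the YY1 motif in 14.1% against 3.19%, and the ERR motif in 6.25% against 1.76%. The letters CCAAT were in 40.6% against 41.1%. The YY1 motif was in 6 of 29 windows of complex I genes and in 0 of 13 of complex IV genes. The windows of subunit genes had a median GC content of 57.8%, those of all genes 52.8%, and its part in these shares was not tested. Genes of mitochondrial ribosomal proteins, with the NRF1 motif in 11.3%, the ETS motif in 37.1% and the YY1 motif in 19.4% of 62 windows, also lay above the shares of all genes. So did those of cytosolic ribosomal proteins, with 6.52%, 43.5% and 4.35% of 46 windows in the same order. Shares above those of all genes were thus not particular to mitochondrial genes, and the ETS share was highest in the cytosolic ribosome. These matches describe the letters and do not show that a factor binds.

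The arrays were alike in scale, with medians between 4.83 and 4.86. ErbB4-/- replicate 3 stood apart on the first principal component, and control replicate 1 had values of sex-biased liver genes unlike those of the other 5 arrays. The steroid dehydrogenase gene Hsd3b5 measured 2.52 there against 8.70 to 9.88, and the cytochrome gene Cyp2b9 measured 12.59 against 7.84 to 8.46. Elovl3, also of the sex-biased genes, measured 7.2 there against 11.4 to 13.3. Whether that mouse differed in sex from the others was not tested. Hepatocyte markers, 9 of them measured, averaged 12.92 to 13.04 on control and 12.88 to 12.97 on ErbB4-/- arrays. Of them 7 were lower in ErbB4-/- liver, with a median difference of -0.026, or 0.0015 without ErbB4-/- replicate 3. Hnf4a differed by -0.30 (SE 0.10, limma adjusted p = 0.760), with all ErbB4-/- values below the controls, as in 3.81% of all genes. Markers of striated muscle, a tissue with its own isoforms of several complex IV subunits, averaged 4.99 to 5.07 and 5.06 to 5.19 over 12 genes.

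None of the 79 subunit genes passed the test in either direction, where 0.00451% of all genes did (limma, adjusted p between 0.760 and 1.00 for the subunits). At an unadjusted p under 0.05, 5 subunit genes were higher in ErbB4-/- liver, or 6.33%, where the share of all genes was 2.77%. None was lower at that level, against 2.94% of all genes. Values of 58 subunit genes were higher in ErbB4-/- liver, 20 were lower and 1 was equal, so 73.4% lay above 0 against 54.6% of all genes. Only 9 subunit genes lay below the median gene in level (5.27). Of all genes at or above that level, 52.1% lay above 0, and 3.16% were higher at an unadjusted p under 0.05 (limma). The median difference of the subunit genes was 0.068, against 0.015 for all genes and 0.0076 for genes at or above the median level. Without control replicate 1 it was 0.0096, with 45 genes (57.0%) above 0, next to 0.015 and 54.6% for all genes, so most of the upward lean of the subunits was gone without that array. With the stated week as a covariate the median was -0.024, with 34 genes (43.0%) above 0, against 0.014 and 52.5% for all genes. The sign of the estimate thus turned. The week slope of that fit rests on replicates 1 and 3 of each group, control replicate 1 and ErbB4-/- replicate 3 among them. It is therefore no check apart from those arrays. Without ErbB4-/- replicate 3 the median rose to 0.0965, with 60 genes (75.9%) above 0, against 0.011 and 53.5% for all genes. Without both arrays it was 0.032, with 48 genes (60.8%) above 0, against 0.011 and 53.2%. Of single genes, 15 changed sign without control replicate 1, 14 of them from higher to lower. Without ErbB4-/- replicate 3, 14 changed sign, 6 from higher to lower and 8 from lower to higher. The largest of these differences was 0.12 in size. In bulk tissue, fewer cells of a type and less RNA per cell cannot be told apart.

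The size of each difference was bounded gene by gene, in the fit without the week. The median standard error over subunit genes was 0.10, and the median half-width of the 95% confidence interval (limma, not adjusted for the number of genes) was 0.24. For 72 of 79 genes the whole interval lay within 1.5-fold in either direction, and for 78 within 2-fold, Cox7c being the exception. Of all 22180 genes, 18120 lay within 1.5-fold and 21245 within 2-fold. The 72 include Cox7a1, identical on every array, whose interval (SE 0.042) rests on the variance prior alone. The intervals do not cover what the week could add: with it as a covariate Cox8a differed by 0.53. The 7 genes whose intervals reached past 1.5-fold were Ndufa1, Ndufa5, Ndufa11, Ndufb3, Ndufs5, Cox7c and Atp5d.

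**Figure D1:**
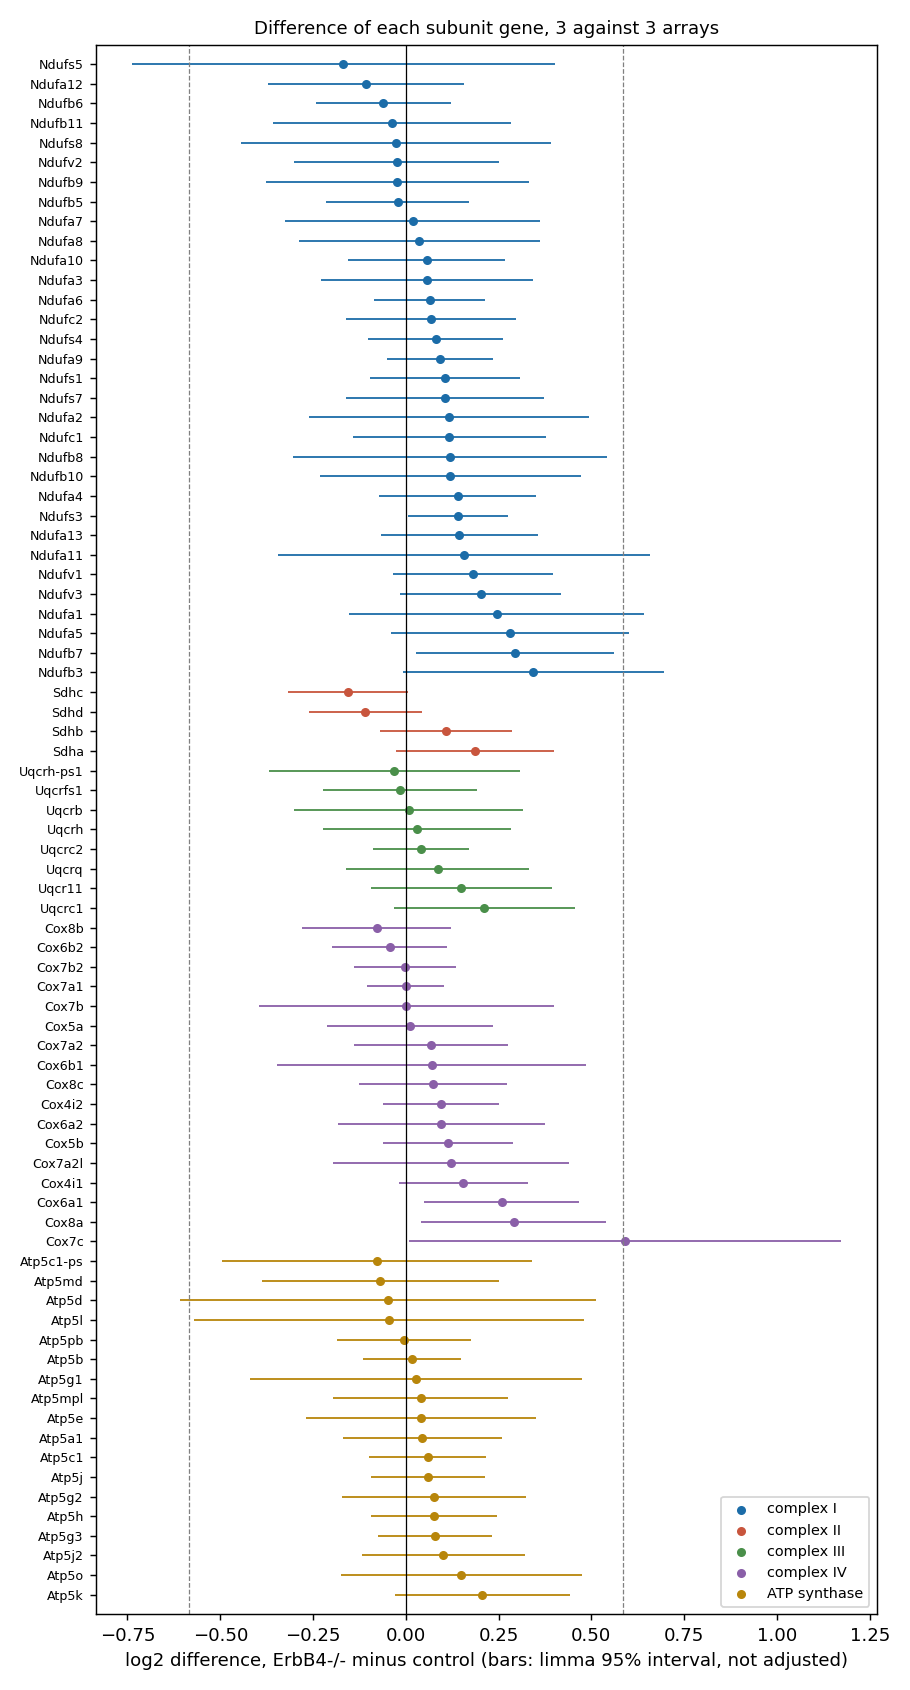
Log2 difference (x axis, ErbB4-/- minus control, 3 arrays each) of the 79 subunit genes, 1 line per gene, coloured by complex, with the 95% interval of limma as a bar and dashed lines at 1.5-fold. The bars of 72 genes stay between the dashed lines, and 5 bars, all to the right, do not touch 0.

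Complex I, the NADH dehydrogenase, had 24 of 32 genes higher and 8 lower, none passing (limma), with a median difference of 0.10. At an unadjusted p under 0.05 (limma) 2 were higher, or 6.25%, against 2.77% of all genes. The mean over its genes was 8.58, 8.78 and 8.73 on control arrays 1 to 3 and 8.81, 8.77 and 8.78 on ErbB4-/- arrays 1 to 3. Control replicate 1 alone lay clearly below the rest, and the median without it was 0.021, with 19 of 32 above 0. Ndufb7, an accessory subunit of the membrane arm, measured 7.62, 7.59 and 7.45 in control and 7.76, 7.73 and 8.05 in ErbB4-/- liver (difference 0.29, SE 0.11, limma adjusted p = 0.760). The groups did not overlap, and the difference was 0.19 without ErbB4-/- replicate 3, its highest array. Ndufs3, a core subunit of the arm that reaches into the matrix, measured 6.53, 6.50 and 6.62 against 6.70, 6.66 and 6.72 (difference 0.14, SE 0.054, limma adjusted p = 0.760). The shift was small, yet all ErbB4-/- arrays lay above all controls. Ndufb3, another accessory subunit of the membrane arm, measured 5.81, 6.32 and 6.20 against 6.50, 6.35 and 6.50 (difference 0.34, SE 0.14, limma adjusted p = 0.760). Its groups did not overlap either, and without control replicate 1, its lowest array, the difference was 0.20. Ndufv3, an accessory subunit of the NADH-oxidising module, measured 7.85, 7.95 and 7.90 against 8.11, 8.24 and 7.95 (difference 0.20, SE 0.087, limma adjusted p = 0.760). Control replicate 2 and ErbB4-/- replicate 3 were equal, so its groups met.

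Ndufv1, the flavin-bearing core subunit that receives the electrons of NADH, measured 9.52, 9.72 and 9.68 in control and 9.78, 9.73 and 9.95 in ErbB4-/- liver (difference 0.18, SE 0.087, limma adjusted p = 0.760). Its groups did not overlap, and it was chosen after this was seen, as were the next 4 genes. Other core subunits, all with overlapping groups, were Ndufs1 with a difference of 0.11, Ndufs7 with 0.11, Ndufs8 with -0.027 and Ndufv2 with -0.024. Of these, Ndufs7 and Ndufs8 had their lowest value in ErbB4-/- replicate 3, and Ndufs1 and Ndufv2 theirs in control replicate 1. Without ErbB4-/- replicate 3 the difference of Ndufs7 was 0.22 and that of Ndufs8 turned to 0.14, and without control replicate 1 that of Ndufs1 was 0.024 and that of Ndufv2 -0.12. The lowest difference in complex I was that of Ndufs5, -0.17 (SE 0.23), read by a probe set with a mean level of only 4.09, below the median gene at 5.27. The brightest probe set of complex I was that of Ndufb9, with a mean of 12.52, and it differed by -0.023, or 0.12 without ErbB4-/- replicate 3. Ndufa4, named as a complex I gene but known as a component of complex IV, measured 11.10, 11.19 and 11.19 against 11.27, 11.17 and 11.45, with overlap.

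Complex II, the succinate dehydrogenase, is also an enzyme of the citric acid cycle. Its 4 genes split, 2 higher and 2 lower, none passing and none at an unadjusted p under 0.05 (limma). Their median difference was -0.00040, which turned to 0.0061 when arrays were centred on their medians to 0.0039 after quantile normalization and to 0.013 without ErbB4-/- replicate 3. Sdhc, which anchors the enzyme in the membrane, measured 9.26, 9.32 and 9.40 in control and 9.21, 9.09 and 9.22 in ErbB4-/- liver (difference -0.16, SE 0.065, limma adjusted p = 0.760). It was the only subunit gene whose ErbB4-/- values all lay below the controls, 1.27% of the members against 3.81% of all genes. Sdhd, the other membrane anchor, measured 10.11, 10.11 and 10.17 against 9.97, 10.12 and 9.98 (difference -0.11, SE 0.061, limma adjusted p = 0.760), with overlap. The catalytic subunits had the opposite sign over all 6 arrays. Sdha, the flavoprotein, measured 11.20, 11.24 and 11.35 against 11.40, 11.35 and 11.60 (difference 0.19, SE 0.085, limma adjusted p = 0.760), its groups meeting at the nearest arrays. Its difference was 0.11 without ErbB4-/- replicate 3 and turned to -0.073 with the week as a covariate. Sdhb, the iron-sulphur subunit, measured 9.66, 9.85 and 9.66 against 9.83, 9.88 and 9.79 (difference 0.11, SE 0.072, limma adjusted p = 0.760), with overlap. Whether the catalytic and anchor genes differ from each other was not tested.

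Complex III, the cytochrome bc1 complex, had 6 of 8 genes higher, none passing and none at an unadjusted p under 0.05 (limma). Its median difference was 0.035, or 0.0050 without control replicate 1. Its mean was 8.14, 8.32 and 8.33 on control arrays 1 to 3 and 8.31, 8.32 and 8.34 on ErbB4-/- arrays 1 to 3, so that control replicate 1 alone was low. That array held the lowest value of 6 of the 8 genes. Uqcrc1, a core protein of the complex, measured 9.9998, 10.30 and 10.26 against 10.46, 10.30 and 10.43 (difference 0.21, SE 0.10, limma adjusted p = 0.760). Its groups were separate only in the third digit after the point at the nearest arrays, and without control replicate 1 the difference was 0.12. Uqcr11, a small subunit, measured 7.14, 7.43 and 7.43 against 7.56, 7.43 and 7.46 (difference 0.15, SE 0.10, limma adjusted p = 0.760), with 3 of the 6 values equal. Uqcrq, another small subunit, differed by 0.086 and Uqcrc2, the other core protein, by 0.040, both with overlap. The Rieske iron-sulphur protein gene Uqcrfs1 differed by -0.016, the hinge protein gene Uqcrh by 0.030, both chosen after their values were seen, and Uqcrb, whose probe set averaged 11.90, by 0.0079. Without control replicate 1, Uqcrb and Uqcrh turned to -0.12 and -0.065. The pseudogene Uqcrh-ps1 had a mean level of 2.82 and a difference of -0.030.

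Complex IV, cytochrome c oxidase, held 3 of the 5 genes with an unadjusted p under 0.05, and none of its genes passed (limma). The 3 are 17.6% of its genes, where 2.77% of all genes were higher at that level. Whether the complexes differ in this was not tested. Of the 17 complex IV genes 13 were higher, 3 lower and 1 equal, with a median difference of 0.074. Without control replicate 1 the median was 0.052, with 9 of 17 above 0. Its mean was 7.26, 7.38 and 7.35 on control arrays 1 to 3 and 7.44, 7.46 and 7.41 on ErbB4-/- arrays 1 to 3. Cox6a1, the isoform of subunit VIa found in liver and most tissues, measured 12.32, 12.37 and 12.44 in control and 12.72, 12.71 and 12.47 in ErbB4-/- liver (difference 0.26, SE 0.084, limma adjusted p = 0.760), with a 95% interval of 0.048 to 0.47. Cox8a, the general isoform of subunit VIII, measured 10.72, 10.75 and 10.67 against 11.08, 11.14 and 10.80 (difference 0.29, SE 0.10, limma adjusted p = 0.760). In both genes ErbB4-/- replicates 1 and 2 were about equally high and replicate 3 lay just above the controls. Without replicate 3 the differences were 0.34 and 0.39, and without control replicate 1 they were 0.23 and 0.29.

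Cox7c, which encodes subunit VIIc, had the largest difference in size among the subunit genes. It measured 5.13, 5.55 and 5.26 in control and 5.57, 5.76 and 6.38 in ErbB4-/- liver (difference 0.59, SE 0.23, limma adjusted p = 0.760), or 1.51-fold. Its mean level of 5.61 is close to the median gene, where a value can be partly background and a fold is uncertain. Control replicate 2 lay just below the lowest ErbB4-/- array, and without ErbB4-/- replicate 3 the difference was 0.35. It had the opposite sign, -0.11, once the stated week was added to the fit. Cox4i1, the general isoform of subunit IV, measured 9.90, 10.09 and 10.03 against 10.09, 10.19 and 10.20 (difference 0.16, SE 0.070, limma adjusted p = 0.760), and its groups met at the nearest arrays. Across all complexes, 8 subunit genes (10.1%) had every ErbB4-/- value above every control value. The share was 4.52% of all genes and 5.31% of genes at or above the median level.

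**Figure D2:**
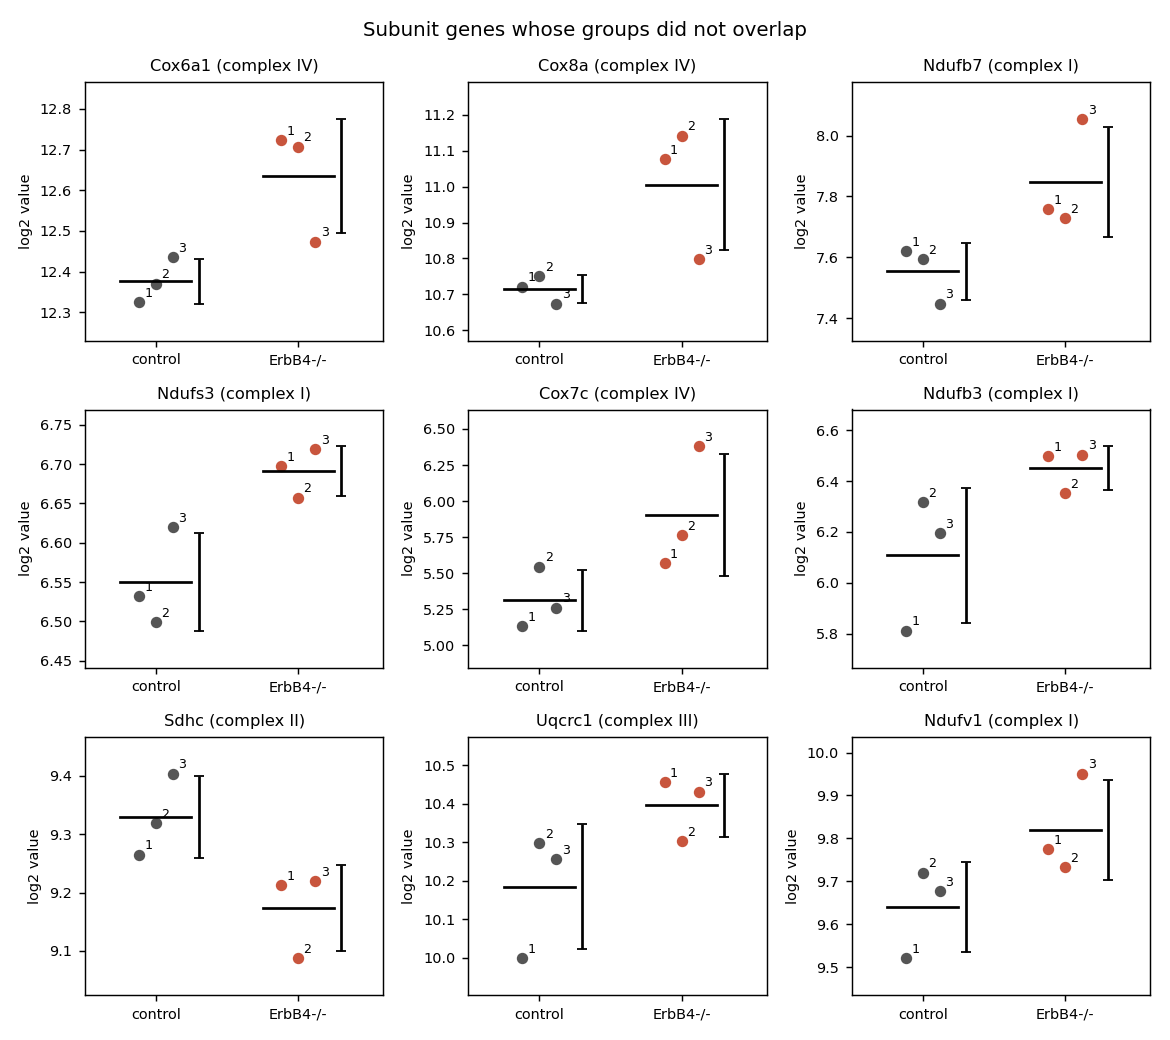
Log2 values (y axis, each panel on its own scale) of the 9 subunit genes whose control (grey) and ErbB4-/- (red) arrays did not overlap, with replicate numbers beside the points, lines at the means and bars for the SD. In Cox6a1 and Cox8a ErbB4-/- replicate 3 lies nearest to the controls, in Ndufb7 and Cox7c it lies farthest from them, and Sdhc alone is lower in ErbB4-/- liver.

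Several complex IV subunits exist as isoforms of other tissues. Cox6a2, Cox7a1 and Cox8b are the forms of heart and skeletal muscle, Cox4i2 is found in lung and in cells that sense oxygen, and Cox6b2, Cox7b2 and Cox8c are known from testis. Of these 7, Cox6a2 and Cox7a1 were read just above the median gene (5.27), with means of 5.41 and 5.66, and the other 5 below it, with means of 3.45 for Cox8b, 4.61 for Cox4i2, 4.54 for Cox6b2, 2.57 for Cox7b2 and 3.63 for Cox8c, where a value can be background. Their differences ran from -0.079 for Cox8b to 0.10 for Cox6a2. The value of Cox7a1 was 5.66 on every array, identical to the last digit given. The general forms Cox6b1, Cox7a2 and Cox7b measured 9.69 to 10.17, 9.27 to 9.56 and 9.76 to 10.27, with differences of 0.070, 0.068 and 0.0013, which turned to -0.063, -0.0080 and -0.082 without control replicate 1. Cox7a2l, a Cox7a-like factor of supercomplex assembly, measured 7.65, 7.61 and 7.61 against 7.61, 7.59 and 8.03, so that ErbB4-/- replicate 3 alone was high. Levels of different probe sets cannot be compared with each other, so no ratio of isoforms is given.

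ATP synthase had 13 of 18 genes higher and 5 lower, with a median difference of 0.042, or 0.0044 without control replicate 1. Its mean was 8.64, 8.76 and 8.76 on control arrays 1 to 3 and 8.76, 8.79 and 8.73 on ErbB4-/- arrays 1 to 3. It had no gene that passed, none at an unadjusted p under 0.05 (limma) and none with separate groups. Atp5k, subunit e of the membrane part, measured 8.37, 8.64 and 8.48 against 8.58, 8.80 and 8.73 (difference 0.21, SE 0.10, limma adjusted p = 0.760). The catalytic beta subunit gene Atp5b, with the brightest probe set of the complex (mean 12.44), differed by 0.016, with a 95% interval of -0.12 to 0.15. The alpha subunit gene Atp5a1, chosen after its values were seen, differed by 0.044, with an interval of -0.17 to 0.26. The genes Atp5g1, Atp5g2 and Atp5g3 encode the same mature c subunit of the rotor ring behind different import signals, and differed by 0.027, 0.075 and 0.080. Atp5g1 was the only subunit gene with its highest value in control replicate 1, 6.73 there against 6.17 to 6.50 on the other arrays, and its difference was 0.21 without that array. The difference of Atp5g3 was 0.035 without it. Atp5o, which joins the peripheral stalk to the catalytic head, measured 5.77, 5.85 and 5.66 against 5.77, 5.77 and 6.18 (difference 0.15, SE 0.13, limma adjusted p = 0.776), with ErbB4-/- replicate 3 alone high. Atp5j2, subunit f, measured 5.02, 5.29 and 5.29 against 5.29, 5.28 and 5.34 (difference 0.10, SE 0.088, limma adjusted p = 0.776), with control replicate 1 alone low. Atp5d, the delta subunit of the central stalk, measured 8.70, 8.9958 and 9.01 against 9.03, 9.16 and 8.37, and Atp5l, subunit g, measured 9.62, 10.18 and 10.12 against 10.11, 10.08 and 9.59. Both, chosen after their values were seen, had their lowest value in ErbB4-/- replicate 3 and their next in control replicate 1. The pseudogene Atp5c1-ps had a mean level of 3.40 and a difference of -0.079.

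Next, the arrays were compared with each other over all subunit genes. Control replicate 1 held the lowest of the 6 values in 41 of 79 genes (51.9%), where it did so in 16.7% of all genes and in 19.8% of genes at or above the median level. It held the highest value in 1. The median over subunit genes of its value minus the mean of the other 5 arrays was -0.17, against -0.00070 over all genes. The same median lay between 0.00 and 0.052 for each of the other 5 arrays. By complex, the value for control replicate 1 was -0.17 in complex I, -0.063 in complex II, -0.24 in complex III, -0.17 in complex IV and -0.16 in ATP synthase. ErbB4-/- replicate 3 differed from gene to gene. It held the highest value in 23 subunit genes and the lowest in 17, which is 29.1% and 21.5% against 23.6% and 20.0% of all genes. These are descriptions of 1 mouse each, with no test.

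**Figure D3:**
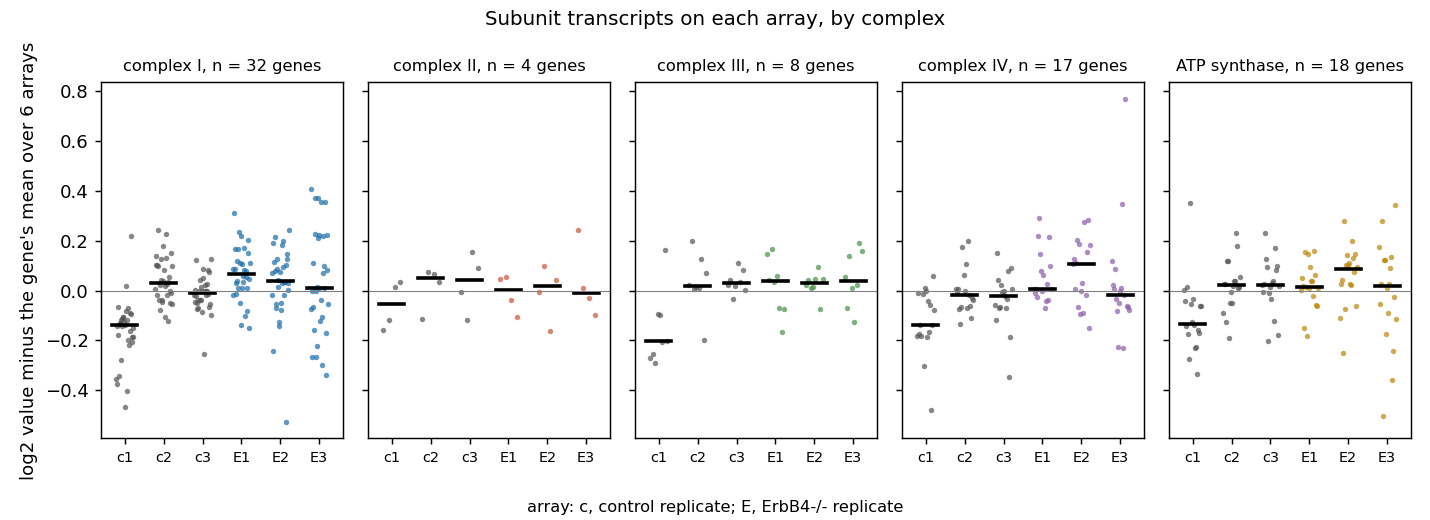
Log2 value minus the gene's own mean over 6 arrays (y axis) on each array (x axis; c, control; E, ErbB4-/-), with 1 point per gene and a black line at the median, by complex. Control replicate 1 lies low in each complex, least in complex II, and the points of ErbB4-/- replicate 3 spread widely around 0.

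**Figure D4:**
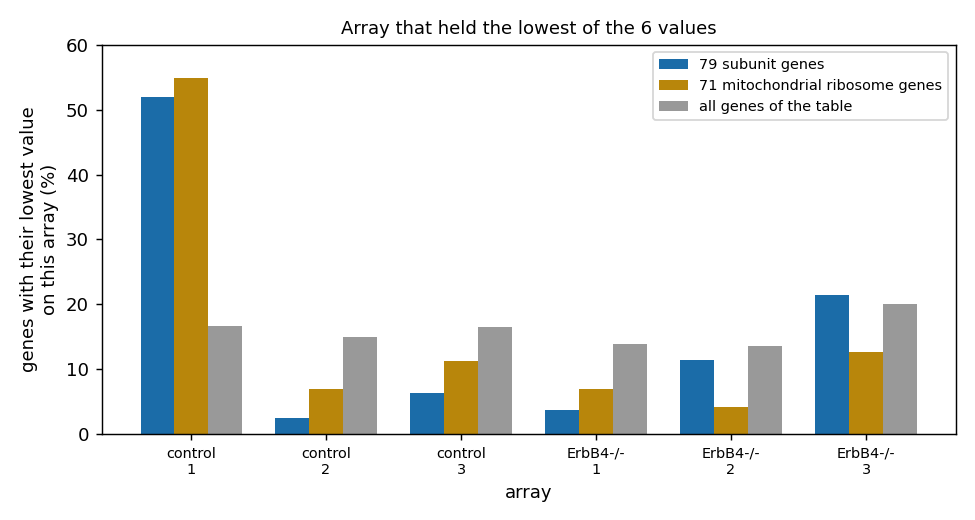
Share of genes (y axis, percent) whose lowest of 6 values fell on each array (x axis), for subunit genes, mitochondrial ribosome genes and all genes. On control replicate 1 the share is 51.9% of subunit genes and 54.9% of mitochondrial ribosome genes, against 16.7% of all genes.

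Markers of other cell types were lower in ErbB4-/- liver by count, with no test of a list. Neutrophil markers averaged 5.26 to 7.19 on control and 4.66 to 4.92 on ErbB4-/- arrays, with 10 of 10 lower. Kupffer cell and macrophage markers averaged 8.47 to 8.81 and 7.25 to 8.12, with 12 of 12 lower, and endothelial markers 8.26 to 8.68 and 7.05 to 8.25, with 10 of 10 lower. Immediate early genes averaged 9.29 to 10.23 and 6.69 to 9.05, with 12 of 12 lower. The median difference of the immediate early genes was -1.53, or -0.77 without ErbB4-/- replicate 3, and turned to 0.82 with the week as a covariate, with 11 of 12 higher. That of the endothelial markers was -0.79, or -0.39 and -0.11 in the same order. No gene of these lists passed, while 9, 10, 6 and 2 of them in turn were lower at an unadjusted p under 0.05 (limma), where the share of all genes was 2.94%. Control replicate 1 held the highest value of 7 of 10 neutrophil markers and of 11 of 12 immediate early genes. Of 8 sex-biased genes it held the lowest value of 6 and the highest of 2. Their part in the values of the subunit genes was not tested.

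The subunits encoded in mtDNA were measured for 10 of 13 genes, at 11.31 to 14.23, where the highest value of the table was 14.37. ND6 was the dimmest, at 11.31 to 11.63, and the other 9 lay closer to the top. Their median difference was -0.025, with 3 higher and 7 lower, none passing and none at an unadjusted p under 0.05 (limma). ND1, a core membrane subunit of complex I, measured 13.87, 13.90 and 13.88 against 13.77, 13.86 and 13.83 (difference -0.062, SE 0.049, limma adjusted p = 0.765), without overlap. COX1, the haem-copper subunit of complex IV, differed by -0.028 and CYTB, cytochrome b of complex III, by -0.022, both with overlap and both chosen after their values were seen. For control replicate 1 the median over these 10 genes of its value minus the mean of the other arrays was -0.0028, next to -0.17 for the nuclear subunits. Whether these sets differ was not tested, and a small shift near the top of the scale does not show a stable level.

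Lists of other genes of mitochondrial function were set beside the subunits, with 0 genes passing in each (limma). Their counts at an unadjusted p under 0.05 are to be read against 2.77% of all genes higher and 2.94% lower. Assembly factors, which build the complexes and are no part of them, had 30 of 43 higher, 1 of them (2.33% of the list) at an unadjusted p under 0.05, and a median of 0.079, or 0.036 without control replicate 1 and 0.036 without ErbB4-/- replicate 3. That gene was Uqcc3, a complex III assembly factor, at 7.22, 6.83 and 7.04 against 7.28, 7.33 and 7.35 (difference 0.29, SE 0.11, limma adjusted p = 0.760). Genes of coenzyme Q synthesis had 9 of 11 higher and none at an unadjusted p under 0.05 (limma). Their median was 0.079, or 0.011 without control replicate 1 and 0.0845 without ErbB4-/- replicate 3. Mitochondrial ribosomal proteins, which translate the mtDNA-encoded subunits, had 55 of 71 higher. Their median was 0.070, or 0.011 without control replicate 1 and 0.054 without ErbB4-/- replicate 3. Of them 2 (2.82% of the list, near the share of all genes) were higher at an unadjusted p under 0.05 (limma). Those were Mrpl17, with a difference of 0.22, and Mrps18a, with 0.28. On control replicate 1 the median shift was -0.17 for the mitochondrial ribosome, -0.15 for assembly factors and -0.25 for coenzyme Q synthesis. It was -0.075 for the citric acid cycle with pyruvate dehydrogenase and -0.014 for the cytosolic ribosome.

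The regulators of mitochondrial genes and of mtDNA had 14 of 20 higher and a median of 0.10, or 0.054 without control replicate 1 and 0.045 without ErbB4-/- replicate 3. The other 6 were lower, with differences down to -0.39. The 3 genes named below have the smallest p of the list and are all higher, so they do not stand for the list. Groups were separate for 3 genes (15.0%) in the higher and 1 (5.0%) in the lower direction, against 4.52% and 3.81% of all genes. Polg2, the accessory subunit of the mitochondrial DNA polymerase, was the one at an unadjusted p under 0.05, at 5.92, 6.30 and 6.15 against 6.45, 6.30 and 6.65 (difference 0.34, SE 0.13, limma adjusted p = 0.760), with overlap. Esrra, which encodes ERR alpha, measured 6.98, 6.62 and 6.97 against 7.03, 7.28 and 7.16 (difference 0.30, SE 0.12, limma adjusted p = 0.760), with separate groups. Sirt3, a mitochondrial deacetylase, measured 7.97, 7.69 and 7.86 against 7.98, 8.20 and 8.70 (difference 0.45, SE 0.20, limma adjusted p = 0.760), also with separate groups and highest on ErbB4-/- replicate 3. With the week as a covariate the median of the regulators was 0.0051 and the difference of Polg2 was 0.021. The import, chaperone and protease list had 10 of 13 higher and a median of 0.065, or 0.069 without control replicate 1 and 0.038 without ErbB4-/- replicate 3. In it 1 gene was at an unadjusted p under 0.05, the import motor gene Timm44 (difference 0.15, SE 0.057, limma adjusted p = 0.760). Mitochondrial antioxidant enzymes had 4 of 5 higher, with the thioredoxin gene Txn2 at that level (difference 0.23, SE 0.080, limma adjusted p = 0.760). Citric acid cycle genes had 12 of 18 higher and a median of 0.0095, and carriers, porins and uncoupling proteins 3 of 8 higher and a median of -0.033, with none at that level in either list. Cytosolic ribosomal proteins had 28 of 60 higher, a median of -0.0078, and 2 genes at that level in each direction. Without ErbB4-/- replicate 3 the cytosolic ribosome turned to 0.040, with 40 of 60 higher. The citric acid cycle turned to -0.030 without control replicate 1 and to -0.0064 without ErbB4-/- replicate 3. The electron carriers and chain genes that the symbols above leave out, such as Etfa and Etfb, which pass electrons from fatty acid oxidation, had 3 of 8 higher and none at that level. Their median was -0.0073, or -0.10 without control replicate 1.

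**Figure D5:**
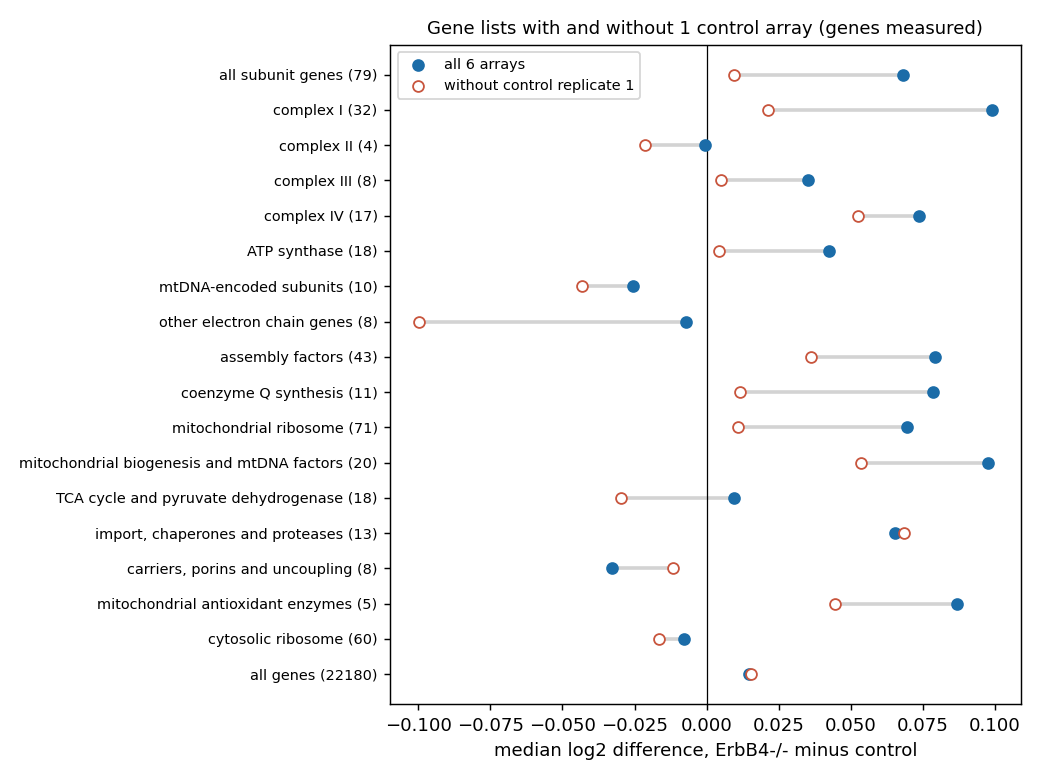
Median log2 difference (x axis, ErbB4-/- minus control) of each gene list, with the number of genes measured in brackets, over all 6 arrays (filled) and without control replicate 1 (open). For all subunit genes the median goes from 0.068 to 0.0096 and for the mitochondrial ribosome from 0.070 to 0.011, while that of all genes goes from 0.015 to 0.015.

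Probe sets outside the chosen ones were read as a check. Of 9 second probe sets of subunit genes, 5 had the sign of the first. The second probe set of Ndufa11 lay at 5.90, 5.85 and 5.90 in control and 6.15, 6.04 and 6.05 in ErbB4-/- liver, a difference of 0.20 next to 0.16 for the first. That of Atp5h differed by -0.48, against 0.076 for the first. Both were named after their values were seen. A further 10 probe sets carry a subunit symbol together with another gene or pseudogene and were left out of the tests. Of these, 6 were higher in ErbB4-/- liver, with differences from -0.15 for Ndufb4 to 0.16 for Ndufs5. Cox6c, Uqcr10, Ndufb2, Ndufb4 and Ndufs6 were read by such probe sets alone.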

How the data were processed

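Values were log2 signals per probe set in the series matrix deposited by the authors. That the base is 2 was judged from their range. Their background correction, normalization and summarisation are not given in the sources used here. Of 41345 probe sets, 23521 have 1 symbol in the platform annotation. Per gene the one with the highest mean was kept, which left 22180 genes, with no filter on dim ones. Exact ties between arrays occurred in 57.5% of genes and 43.0% of subunit genes, so that some standard errors rest mostly on the variance prior of limma. Depth does not apply to arrays, and their number limits the precision. The design calls the mice biological replicates.

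The fit used limma 3.58.1 in R 4.3.3 (functions lmFit and eBayes), two-sided, with genotype as the only term and Benjamini-Hochberg adjustment over 22180 genes at 0.05. It was also run on simulated data, but the outcome is not given here and no result above rests on it. An exact permutation test of 3 against 3 cannot give a p below 0.10 and was not used. Lists are described by counts and medians, without a test of the list. The subunit genes and lists were chosen with earlier results of these data known. Named genes are the 4 subunit genes per complex with the smallest p, the highest and lowest in level, the isoform sets and up to 3 genes per list, to which some were added after their values were seen. Promoters came from RefSeq (GRCm38.p6), matched by symbol. Alternatives were normalization, filter, probe set, prior, array weights, replicate block, week, threshold and single arrays left out. Figures were drawn with matplotlib 3.10.9.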

Additional observations from a re-analysis of the deposited data

How the results depend on the processing

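No subunit gene passed at 0.05 under any of the 18 other settings, nor at a threshold of 0.1, with a smallest adjusted p of 0.643. The single call among all genes was lost (0 genes) with every row of the table, with the replicate block, with the week as a covariate, at a threshold of 0.01, without any 1 array (0 to 0 genes) and without control replicate 1 and ErbB4-/- replicate 3 together, a setting added after the data were seen. The replicate numbers did not pair the mice: correlations of same-numbered deviations were -0.10, 0.034 and -0.050, 1 of 6 samples correlated best with its own number, and with the replicate block 0 members were called. With the week as a covariate the median differences were -0.024 for all subunit genes, 0.017 for complex I, -0.12 for complex II, -0.081 for complex III, 0.021 for complex IV and -0.032 for ATP synthase. Of these, complexes I and IV stayed above 0 and complex II below, and the others turned. The import list (-0.048), the assembly factors (-0.082), the mitochondrial ribosome (-0.071) and coenzyme Q synthesis (-0.13) also turned below 0. The cytosolic ribosome (0.089) and the carriers, porins and uncoupling proteins (0.0090) turned above 0. Leaving out 1 array gave complex I a median between 0.021 and 0.13, lowest without control replicate 1. The 28 genes followed through all settings are mainly those with the smallest p, and 434 of their 447 values kept their direction. That count is no measure of robustness, because some settings cannot change a difference. Every row of the table, the filter on level, the other prior and the replicate block returned the same differences. Most of the turns came with the week as a covariate. Over all 79 subunit genes, 28 changed sign without control replicate 1 or without ErbB4-/- replicate 3, the largest of them 0.12 in size. With the week as a covariate the sign turned, among the 28, for Sdha (-0.073), Uqcr11 (-0.0010), Uqcrq (-0.24), Uqcrc2 (-0.024), Cox7c (-0.11), Cox4i1 (-0.024), Atp5g3 (-0.028), Atp5o (-0.065), Atp5j2 (-0.14), Ndufv1 (-0.068) and Mrps18a (-0.088). Without control replicate 1 and ErbB4-/- replicate 3 together it turned for Uqcrq (-0.052) and Atp5j2 (-0.0077). The cause was not tested. Week and genotype are separated only by the weeks within each group, and an alternative pseudocount had no use for log2 values.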
